A study of Mus musculus with 16 samples.

Results

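Distal H3K27ac regions found in arid4b-delta cells of both lineages and in WT cells of neither were examined in CJ9 mouse embryonic stem cells. All peaks of the 4 H3K27ac lists that overlapped by at least 1 bp were merged into 45330 regions, of which 32748 lay more than 2500 bp from any end of a protein-coding gene in mm10. Of these distal regions, 3838 (11.7%) overlapped a peak in both arid4b-delta lists and in neither WT list. These 3838 regions are the subject here, and they were chosen by the presence and absence of H3K27ac peaks, so their H3K27ac values are a description and support nothing further. Their H3K4me3 and H3K27me3 peaks took no part in the choice.

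The cells were arid4b-delta, labelled arid4b∆, or WT, and each genotype was directed for 5 days to endoderm or to mesoderm, which gives 4 groups: arid4b-delta endoderm, arid4b-delta mesoderm, WT endoderm and WT mesoderm. Chromatin was fixed for 8 min and profiled by ChIP-seq, in which antibodies against a histone mark pull down the DNA that carries it. Each of 3 marks was measured with 1 library per group, so no genotype difference could be tested, no p-values are given, and no value has a replicate error. Neither the deleted part of Arid4b nor whether the line is 1 clone is stated in the labels.

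H3K27ac, acetylation of lysine 27 on histone H3, marks active promoters and active enhancers, and away from gene ends it is widely used to map enhancers. The acetyl group is written mainly by the acetyltransferases p300 and CBP and removed by histone deacetylases. Arid4b belongs to the Sin3-HDAC corepressor, which brings such deacetylases to chromatin. H3K4me3 is typical of promoters at which transcription starts, and H3K27me3 is written by Polycomb repressive complex 2 on the same lysine that acetylation occupies, so one histone tail cannot hold both marks at that position.

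Peak lists give no totals of reads, so the sequencing depth is unknown. The H3K27ac lists held 35884 peaks in arid4b-delta endoderm, 22747 in arid4b-delta mesoderm, 14216 in WT endoderm and 12496 in WT mesoderm. The H3K4me3 lists held 25272 and 26852 peaks in arid4b-delta endoderm and mesoderm, against 22292 and 21752 in WT endoderm and mesoderm, and the H3K27me3 lists 16660 and 9863 against 10326 and 6150. The labelled lineages were looked up at their defining markers: H3K27ac lay within 1000 bp of a gene end at 0 of 7 endoderm markers in all 4 lists, and at 5 of 8 mesoderm markers in WT mesoderm (T, Tbx6, Pdgfra, Foxc1 and Twist1) but at 0 of 8 in the other 3. Of 5 pluripotency markers, 2 in arid4b-delta endoderm, 3 in arid4b-delta mesoderm, 3 in WT endoderm and 2 in WT mesoderm had it. Arid4b had H3K27ac and H3K4me3 at a gene end in all 4 groups, which does not check the genotype.

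Few of the regions hold a RefSeq gene start, and those that do are described first by the H3K4me3 found there in WT. RefSeq gives a window of 300 bases around each gene's start, 250 before and 50 after it, and 26 such windows touched 25 of the 3838 regions (0.651%, exact 95% interval 0.422 to 0.960). At 13 windows the region also carried H3K4me3 in a WT library. Of these, 9 belonged to protein-coding genes with a RefSeq start inside the gene body, away from both gene ends, and 4 to lncRNA genes. At the other 13 windows WT had no H3K4me3, and all 13 belonged to lncRNA genes. The windows with WT H3K4me3 had a median GC content of 69.3% and a median of 25 CpG dinucleotides, against 45.3% and 4.0 in those without. The ranges overlap, at 52.0% to 79.7% GC and 12 to 49 CpG with WT H3K4me3 and 32.3% to 66.3% and 0 to 19 without. Over all 32851 windows of the table the medians were 52.7% and 7.0.

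For each group 3 starts are printed, chosen after their values were seen. With WT H3K4me3 their whole windows hold 31 (Dst), 28 (B230319C09Rik) and 25 CpG (Hif1a). Without it they hold 4 (Gm30984), 19 (Gm5636) and 11 (Gm13572). The richest window, with 49, and the poorest, with 0, are not printed. Each sequence is from RefSeq on mm10, holds only the bases inside the H3K27ac region, stops at the transcript start for protein-coding genes, and is written 5′ to 3′ on the strand of the gene. Capitals mark CpG dinucleotides. Dst encodes the cytoskeletal linker dystonin, Hif1a the hypoxia-responsive transcription factor subunit, and B230319C09Rik is an lncRNA whose start lies in the same region as a start of Tet3, a 5-methylcytosine dioxygenase. All 3 had H3K4me3 in all 4 libraries. Gm30984, Gm5636 and Gm13572 are lncRNA genes.
Dst (chr1:34011345-34011594, plus strand): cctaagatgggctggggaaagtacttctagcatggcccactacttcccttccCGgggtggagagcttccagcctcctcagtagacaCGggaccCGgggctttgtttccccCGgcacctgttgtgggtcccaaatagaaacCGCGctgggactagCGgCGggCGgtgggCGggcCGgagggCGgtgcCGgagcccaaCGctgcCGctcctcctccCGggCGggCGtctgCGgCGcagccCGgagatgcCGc
B230319C09Rik (chr6:83441505-83441804, plus strand): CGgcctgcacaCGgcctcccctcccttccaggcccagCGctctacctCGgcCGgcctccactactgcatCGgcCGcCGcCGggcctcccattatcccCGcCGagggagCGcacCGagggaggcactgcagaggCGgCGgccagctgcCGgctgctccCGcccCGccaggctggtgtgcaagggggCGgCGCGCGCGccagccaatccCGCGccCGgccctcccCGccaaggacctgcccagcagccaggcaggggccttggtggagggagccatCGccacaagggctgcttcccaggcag
Hif1a (chr12:73907617-73907713, plus strand): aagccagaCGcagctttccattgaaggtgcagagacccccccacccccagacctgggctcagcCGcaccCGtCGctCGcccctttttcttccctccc
Gm30984 (chr17:87531047-87531346, minus strand): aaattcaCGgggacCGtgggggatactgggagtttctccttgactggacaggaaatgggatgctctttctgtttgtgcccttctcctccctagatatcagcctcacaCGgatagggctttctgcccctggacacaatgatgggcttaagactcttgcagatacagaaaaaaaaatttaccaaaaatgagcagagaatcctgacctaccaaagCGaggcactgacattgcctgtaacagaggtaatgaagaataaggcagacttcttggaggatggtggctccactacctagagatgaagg
Gm5636 (chrX:47436492-47436612, minus strand): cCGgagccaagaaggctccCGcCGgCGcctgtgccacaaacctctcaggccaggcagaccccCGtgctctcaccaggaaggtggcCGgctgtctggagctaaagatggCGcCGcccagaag
Gm13572 (chr2:60036950-60037190, plus strand): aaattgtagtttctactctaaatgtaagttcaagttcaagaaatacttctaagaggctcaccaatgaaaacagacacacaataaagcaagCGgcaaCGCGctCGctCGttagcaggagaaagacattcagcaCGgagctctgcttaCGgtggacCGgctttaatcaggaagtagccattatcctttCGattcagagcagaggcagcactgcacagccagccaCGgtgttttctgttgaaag

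The printed bases of Dst hold 22 CpG in 250 bases those of B230319C09Rik 28 in 300 and those of Hif1a 5 in 97. Gm30984 has 4 in 300, Gm13572 has 10 in 241, and Gm5636 has 8 in 121. The printed bases of Gm5636 thus hold more CpG per base than those of Hif1a. Over the whole windows of 300 bases the order is the other way, with 25 CpG for Hif1a and 19 for Gm5636. The start window of Gm30984 lay wholly inside a region of 975 bp on chromosome 17, 83945 bp from the end of Calm2, with H3K4me3 in arid4b-delta endoderm and arid4b-delta mesoderm and in neither WT library. The region with the printed Gm5636 bases on chromosome X likewise had H3K4me3 in both arid4b-delta libraries and neither WT library, with H3K27me3 in WT endoderm. The Gm5636 window also touched another of the regions, at 47436655 to 47437053, with H3K4me3 in arid4b-delta mesoderm alone and H3K27me3 in WT endoderm. The region at Gm13572 had H3K4me3 in arid4b-delta mesoderm alone among the 4. The H3K27ac fold enrichment of the Gm30984 region was 5.92 in arid4b-delta endoderm and 8.09 in arid4b-delta mesoderm. That of the region with the printed Gm5636 bases was 6.98 and 6.37, and that of the other Gm5636 region 4.81 and 5.78. The Gm13572 region had 7.51 and 6.35. None had a peak in either WT list. Fold enrichment is a ratio over control or local background given by the authors' peak caller, used to describe and rank peaks within 1 list.

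Letters bound by common transcription factors were searched on both strands of the 26 windows and of all 32851. No search string contains another. The octamer ATGCAAAT was in 0 of 26 windows (1.74% of all windows), the T-box string TCACACCT in 0 (1.28%), the Sox string ATTGTT in 1 (10.7%), the AP-1 string TGANTCA in 2 (7.81%) and the GATA string AGATAA in 2 (11.2%). The Tcf/Lef string CTTTGA was in 3 windows (16% of all), the TEAD string GGAATG in 4 (14.7%), the Klf string CCACCC in 9 (34.6% of the 26, 31.5% of all) and the nuclear receptor string GGTCA in 9 (40.5% of all). With 26 windows these counts give no more than a description.

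H3K27ac in both lineages of one genotype and in neither of the other was counted at more distal regions for arid4b-delta than for WT. Of 6921 distal regions in both arid4b-delta lists, 3838 (55.5%, exact 95% interval 54.3 to 56.6) were in no WT list. Of 1718 distal regions in both WT lists, 133 (7.74%, 6.52 to 9.11) were in no arid4b-delta list. Within 2500 bp of gene ends the same counts were 411 of 5874 (7.0%) for arid4b-delta and 263 of 5478 (4.80%) for WT. The arid4b-delta lists are the longer ones. With all 4 lists cut to the length of the shortest, by fold enrichment, the counts became 1230 distal regions for arid4b-delta and 252 for WT. Intervals cover counting error among regions only, and neighbouring regions are not independent. A mark in fewer cells and a weaker mark in every cell cannot be told apart in such bulk samples.

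**Figure D1:**
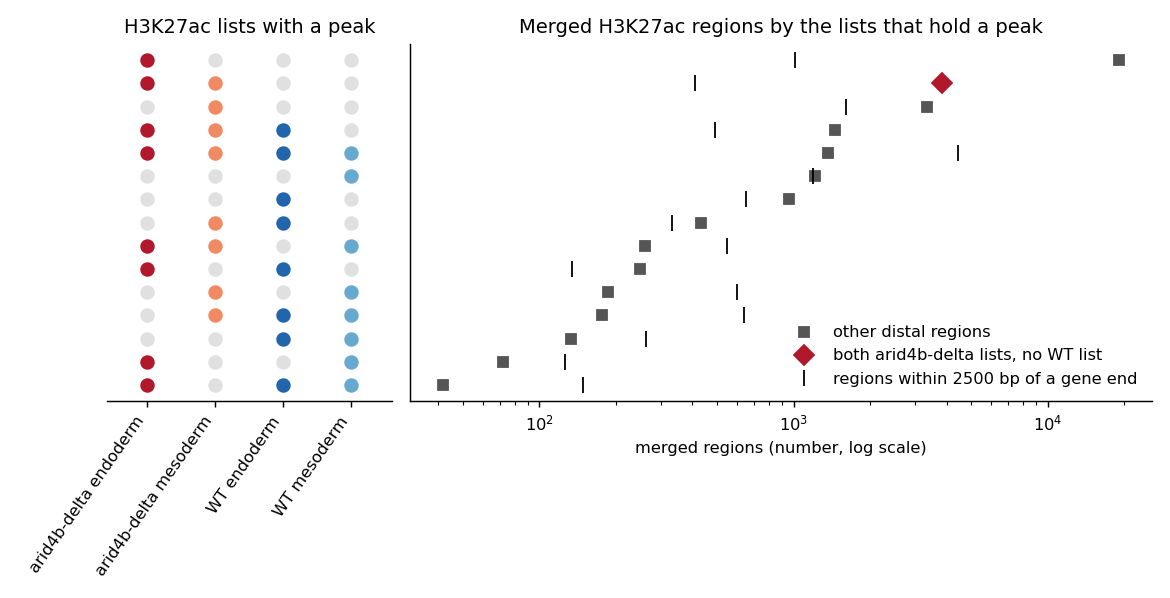
Number of merged H3K27ac regions (log scale) for each combination of the 4 lists that hold a peak, shown by the filled dots on the left. The 3838 distal regions in both arid4b-delta lists and no WT list (diamond) are the second most frequent combination after 19007 in arid4b-delta endoderm alone, and short lines give the regions within 2500 bp of a gene end.

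Most distal regions, 19007, had a peak in arid4b-delta endoderm alone. A further 3348 were in arid4b-delta mesoderm alone, 1456 in both arid4b-delta lists and WT endoderm, 261 in both arid4b-delta lists and WT mesoderm, and 1366 in all 4 lists, as the plot of regions by list combination shows.

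By median width the regions lay between those of 1 arid4b-delta list alone and those of all 4 lists. Merged width ran from 147 to 3825 bp with a median of 425 bp and quartiles of 301 and 629 bp. Median width was 181 bp in arid4b-delta endoderm alone, 176 bp in arid4b-delta mesoderm alone, 780 bp in all 4 lists and 209 bp over all distal regions. A region merged from several peaks is at least as wide as each of them. The best peak of each region had a median width of 349 bp in arid4b-delta endoderm, where the whole list has 216 bp, and 243 bp in arid4b-delta mesoderm, where the whole list has 264 bp. In 3241 regions (84.4%) there was exactly 1 peak of each arid4b-delta list. The summits of the 2 peaks lay a median of 76.0 bp apart and within 200 bp of each other in 3156 regions (82.2%).

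Rank is given as the percentile of a peak's fold enrichment in its own list. The endoderm list is the longer one, so percentiles of the 2 lists are not on one scale, and these peaks are the ones the regions were chosen by. Median fold enrichment was 7.37 in arid4b-delta endoderm, at a median percentile of 72.0, and 6.35 in arid4b-delta mesoderm, at a median percentile of 37.4. Both percentiles passed 50 in 1037 regions (27%) and both passed 90 in 2. Across the 3838 regions the 2 percentiles had a Spearman rank correlation of 0.35, a description over regions that share their libraries. Fold enrichments took discrete levels, 33.2% of the mesoderm values falling on the 5 commonest, with steps of 0.578, so many regions tie in rank.

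**Figure D2:**
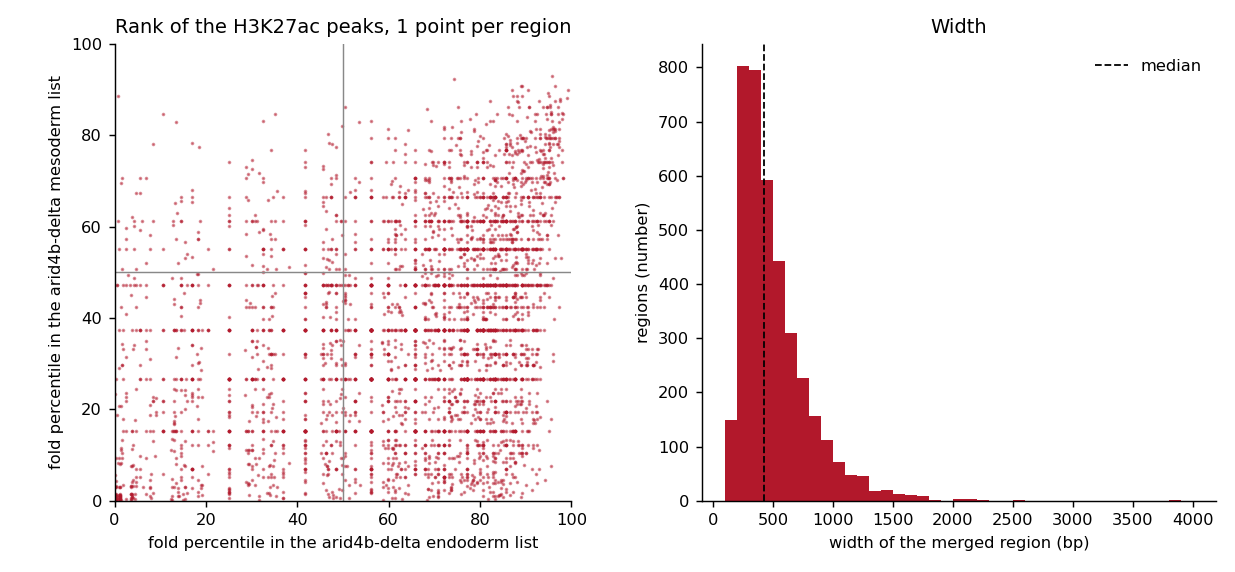
Left, percentile of fold enrichment in the arid4b-delta mesoderm list against that in the arid4b-delta endoderm list, 1 point per region, with lines at 50; right, number of regions by merged width in bins of 100 bp, with the median of 425 bp dashed. The median percentiles are 72.0 in endoderm and 37.4 in mesoderm, on lists of different length, and the lines of points are tied fold enrichments.

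Of the 20 regions that ranked highest in both lists, 4 lay inside a protein-coding gene, near the share of 25.1% over all 3838. The first by the lower of its 2 percentiles was inside Elmo1, an activator of Rac signalling in cell engulfment, at chromosome 13, 20134997 to 20135471, with fold enrichments of 15.7 in arid4b-delta endoderm and 17.3 in arid4b-delta mesoderm and no WT peak. Next came a region of 908 bp at chromosome 4, 34348679 to 34349586, 201029 bp from Akirin2, a nuclear import factor of the proteasome, with 16.3 and 15.6. A region of 2052 bp at chromosome 7, 7617256 to 7619307, 50470 bp from the vomeronasal receptor gene Vmn2r33, had the highest endoderm value of all, 26.5, and 15.0 in mesoderm. Kif6, a kinesin gene, held a region with 23.8 and 14.3 at chromosome 17, 49781471 to 49781993.

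Other regions among the 20 highest had these nearest genes. A region 58143 bp from Hey2, a Notch target that encodes a basic helix-loop-helix repressor, had 16.4 in arid4b-delta endoderm and 13.9 in arid4b-delta mesoderm. Tbl1xr1, which encodes a subunit of the NCoR corepressor, was 410303 bp from a region with 10.1 and 15.0. Hif1an, the asparaginyl hydroxylase of HIF proteins, was 17458 bp from a region with 18.2 and 13.9, and Asns, asparagine synthetase, 25834 bp from one with 10.8 and 15.6. The remaining nearest genes were Klhl29, Pgk2, Socs6, Tcf4, Fetub, Btbd3, Cldn34b3, Kdelr2, Tom1l1, Cdh12, B4galnt2 and 1 gene with a predicted symbol. Of these 20 regions, 19 had neither H3K4me3 nor H3K27me3 in any library, and the Hey2 region had H3K4me3 in arid4b-delta endoderm, arid4b-delta mesoderm and WT endoderm, so in mesoderm it was in arid4b-delta and not in WT.

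Width and rank picked different regions. The widest, 3825 bp at chromosome 8, 20677321 to 20681145, lay in a stretch of predicted genes, with fold enrichments of 7.0 and 8.03 in arid4b-delta endoderm and mesoderm and H3K27me3 in all 4 libraries. The next were 2588 bp inside Cd84, a receptor of immune cells, with 15.8 and 11.6, then 2535 bp near H2ab1 on chromosome X, 2281 bp near Cela3a, a pancreatic elastase gene, and 2203 bp near Plppr4. At the distance limit, the nearest regions beyond it lay 2501, 2511 (Tac4) and 2513 bp (Wwox) from a gene end, with endoderm fold enrichments of 4.58, 5.92 and 3.12. Those just within it lay 2476 (Zc3h4), 2476 (Ghitm) and 2450 bp away, with 5.27, 14.3 and 5.92.

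H3K4me3 accompanied many of the regions in arid4b-delta and few in WT. It overlapped 837 regions (21.8%, exact 95% interval 20.5 to 23.1) in arid4b-delta endoderm and 1266 (33.0%, 31.5 to 34.5) in arid4b-delta mesoderm, against 120 (3.13%, 2.6 to 3.73) in WT endoderm and 92 (2.40%, 1.94 to 2.93) in WT mesoderm. Over all distal H3K27ac regions the share with H3K4me3 was 11.0% in arid4b-delta endoderm and 13.6% in arid4b-delta mesoderm. In WT endoderm and WT mesoderm H3K4me3 overlapped 5.77% and 5.89% of them. In endoderm 725 regions (18.9%) had it in arid4b-delta and not in WT, where the background over all 32748 distal H3K27ac regions is 5.44%, and 8 (0.208%) had it in WT but lacked it in arid4b-delta, where the background is 0.220%. For mesoderm the counts were 1177 (30.7%, background 7.89%) for arid4b-delta and 3 (0.0782%, background 0.147%) for WT. Taking both lineages, 1331 regions (34.7%) had H3K4me3 in at least 1 arid4b-delta library and no WT library, 520 of them in both arid4b-delta libraries, 132 had it in both genotypes, 4 in WT alone and 2371 (61.8%) in no library.

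Values for other distal regions are set beside these without a test. Over the 28910 other distal regions endoderm H3K4me3 was one-sided for arid4b-delta at 3.65% and mesoderm H3K4me3 at 4.87%. Regions in all 4 H3K27ac lists had H3K4me3 at 66.3% in arid4b-delta endoderm and 69.2% in arid4b-delta mesoderm, against 54.7% in WT endoderm and 53.8% in WT mesoderm, and were one-sided for arid4b-delta at 13.9% and 16.6%. The 133 regions in both WT lists and no arid4b-delta list were one-sided for arid4b-delta at 16.5% in endoderm and 9.77% in mesoderm. In each lineage 2 of the 133 were one-sided for WT. One-sided H3K4me3 for arid4b-delta was thus not confined to regions with H3K27ac in arid4b-delta alone. The regions described here had 18.9% in endoderm, near that of the 133, and 30.7% in mesoderm, above it. A region with H3K4me3 in WT cannot be one-sided for arid4b-delta, which limits these shares unequally. WT endoderm and WT mesoderm had H3K4me3 at 54.7% and 53.8% of the regions in all 4 lists, but at 3.13% and 2.40% of those described here. Shares among regions without WT H3K4me3 were not counted, so a higher one-sided share than in all 4 lists does not show more frequent gain. Width also bears on these shares, since a wider region has more room to overlap a peak. In mesoderm, one-sided H3K4me3 between 301 and 600 bp was found at 26.5% (24.5 to 28.6) of the regions described here, 10.4% (9.06 to 11.8) of those in arid4b-delta endoderm alone, 54 of 539 of those that also had WT endoderm and 12.7% (9.54 to 16.3) of those in all 4 lists. Over 600 bp these shares were 56.0% (53.0 to 59.1), 32.2% (24.8 to 40.4), 14.7% (12.4 to 17.3) and 19.1% (16.6 to 21.8). In endoderm they were 15.1%, 6.38%, 10.2% and 14.4% between 301 and 600 bp, where the intervals of the regions described here and of those in all 4 lists overlap, and 37.3% (34.4 to 40.3), 22.1% (15.8 to 29.7), 11.4% (9.27 to 13.7) and 13.9% (11.7 to 16.4) over 600 bp. Up to 300 bp, where only 66 regions are in all 4 lists, endoderm gave 5.85% (4.45 to 7.53) for the regions described here against 10.6% (4.37 to 20.6) for those in all 4 lists, and mesoderm 10.8% (8.87 to 12.9) against 6.06% (1.68 to 14.8).

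**Figure D3:**
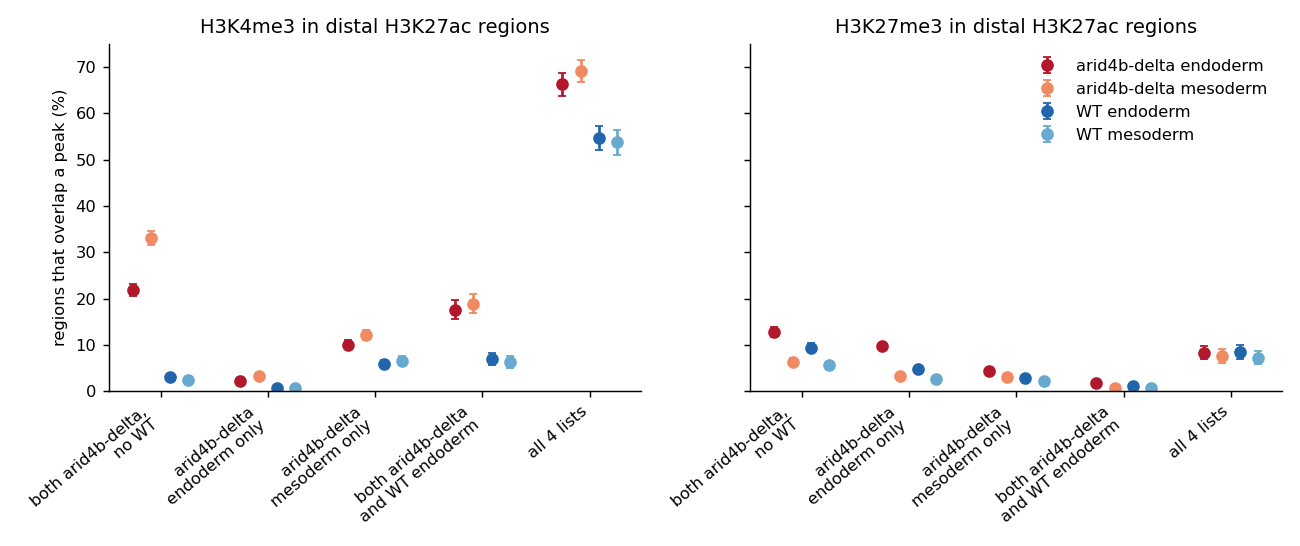
Share of distal H3K27ac regions (%) that overlap an H3K4me3 peak (left) or an H3K27me3 peak (right) in each of the 4 libraries, by the H3K27ac lists that hold the region, with exact 95% intervals. In the regions of both arid4b-delta lists and no WT list, H3K4me3 reached 21.8% and 33.0% in the arid4b-delta libraries, against 3.13% and 2.40% in the WT libraries.

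The H3K4me3 peaks in the regions were weak ones in both genotypes. All peaks over the regions are described, also those at regions marked in both genotypes. Their median width was 224 bp in arid4b-delta endoderm and 253 bp in arid4b-delta mesoderm, where the whole lists have 682 and 695 bp, and their median fold percentiles were 14.2 and 16.8. In WT endoderm and WT mesoderm the median widths were 299 and 392 bp, where the whole lists have 476 and 639 bp. The WT median fold percentiles were 14.9 and 25.1. Median fold enrichment was 4.82 in arid4b-delta endoderm and 4.77 in arid4b-delta mesoderm, against 11.0 and 10.2 for the same libraries' peaks in regions of all 4 lists. Their summits lay a median of 107 bp (endoderm) and 95 bp (mesoderm) from the H3K27ac summit. With the upper 50% of each H3K4me3 list by fold enrichment, one-sided H3K4me3 fell to 0.547% in arid4b-delta and 0.0521% in WT endoderm, and to 0.730% and 0% in mesoderm. With the 4 lists matched in length it was 9.35% in arid4b-delta and 0.495% in WT endoderm, and 14.2% and 0.365% in mesoderm.

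H3K4me3 in arid4b-delta was more frequent in wider regions, and none of the 20 regions that rank highest for H3K27ac had it in arid4b-delta and in no WT library of either lineage. With the regions split by width into 4 groups of equal size, from the narrowest to the widest, the share with H3K4me3 was 8.13%, 15.4%, 22.0% and 41.7% in arid4b-delta endoderm. In arid4b-delta mesoderm it was 12.7%, 24.3%, 35.8% and 59.2%. In the WT libraries it stayed between 1.88% and 3.75% in all 4 groups. Split likewise by the lower of the 2 H3K27ac percentiles, the share in arid4b-delta mesoderm was 23.7%, 30.6%, 39.5% and 38.1% from the lowest to the highest group. Among the 383 highest regions 100 (26.1%, 21.8 to 30.8) had H3K4me3 in arid4b-delta and in no WT library, among the 100 highest 11 (11.0%, 5.62 to 18.8), and among the 20 highest 0, which allows a share of up to 16.8%. The share over all 3838 is 34.7%.

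**Figure D4:**
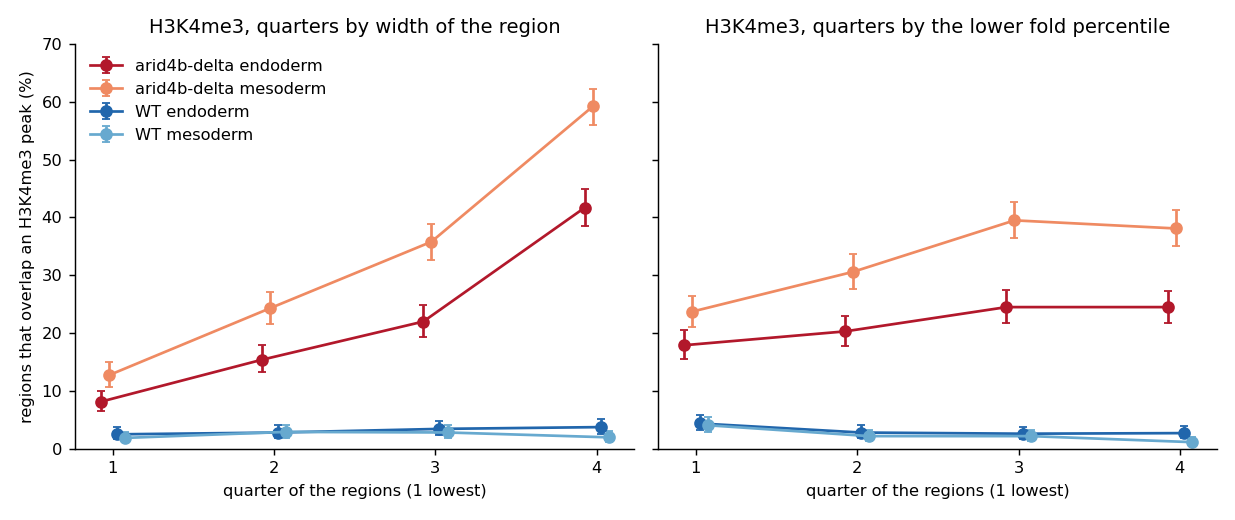
Share of the 3838 regions (%) that overlap an H3K4me3 peak in each library, in 4 groups of equal size by merged width (left) and by the lower H3K27ac percentile (right), with exact 95% intervals. Both arid4b-delta libraries climb with width, to 41.7% and 59.2%, while the WT libraries stay at 3.75% or less.

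The highest ranked regions with H3K4me3 in both arid4b-delta libraries and neither WT library lay near genes of several kinds. One of 781 bp at chromosome 7, 21022613 to 21023393, 10158 bp from the vomeronasal receptor gene Vmn1r119, had H3K27ac fold enrichments of 16.4 in arid4b-delta endoderm and 11.6 in arid4b-delta mesoderm. One of 2007 bp at chromosome 10, 29873351 to 29875357, 320652 bp from Cenpw, a centromere protein gene, had 15.8 and 11.6. The others were near Gmnc, a regulator of multiciliated cells (12.4 and 11.6), Kcnj3, a potassium channel subunit (14.1 and 11.0), and Lrrc4c, a synaptic adhesion protein gene (9.63 and 11.0). By chromosome, H3K4me3 in arid4b-delta alone was at 143 of the 279 regions on X (51.3%), and on every other chromosome at 23.0% to 42.4%. On X it overlapped 26.9% of the regions in arid4b-delta endoderm and 46.6% in arid4b-delta mesoderm, against 1.08% in WT endoderm and 0% in WT mesoderm. The same shares over all distal H3K27ac regions of each chromosome were not counted. Whether X stands out among the other distal regions too is therefore unknown.

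H3K27me3 differed less between the genotypes. It overlapped 492 regions (12.8%, 11.8 to 13.9) in arid4b-delta endoderm and 243 (6.33%, 5.58 to 7.15) in arid4b-delta mesoderm, against 362 (9.43%, 8.53 to 10.4) in WT endoderm and 214 (5.58%, 4.87 to 6.35) in WT mesoderm. Over all distal regions the share with H3K27me3 was lower in all 4 libraries. It was 8.72% in arid4b-delta endoderm, 3.79% in arid4b-delta mesoderm, 5.14% in WT endoderm and 3.13% in WT mesoderm. Regions in both arid4b-delta lists and WT mesoderm had more than those described here, at 31.0%, 26.1%, 27.2% and 25.7% in that order. Regions in both arid4b-delta lists and WT endoderm had less, at 1.72%, 0.618%, 1.10% and 0.755%. In endoderm 268 of the regions described here (6.98%, background 5.80%) were marked in arid4b-delta but not WT, and 138 (3.6%, background 2.23%) the other way round. Mesoderm counts were 94 (2.45%, background 1.86%) and 65 (1.69%, background 1.20%). These one-sided shares lie near the background. With the H3K27me3 lists matched in length the order turned, to 3.20% in arid4b-delta and 3.78% in WT endoderm and to 1.56% and 2.50% in mesoderm.

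Most regions, 3127 (81.5%), had H3K27me3 in no library, 132 had it in all 4, and 15 had it in both arid4b-delta libraries and neither WT library. The highest ranked of these 15 was 1101 bp wide, at chromosome 14, 53563566 to 53564666, and 670819 bp from Dad1, with H3K27ac fold enrichments of 14.7 in arid4b-delta endoderm and 9.71 in arid4b-delta mesoderm. The next were near Vmn1r208 (10.7 and 9.43), Plekhg6 (7.37 and 8.66), a predicted gene, and the histamine receptor gene Hrh4 (7.18 and 7.80). Neither H3K4me3 nor H3K27me3 was found in any library at 2042 regions (53.2%).

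The regions lay farther from protein-coding genes than those in all 4 lists, as did the regions in arid4b-delta endoderm alone. Their median distance to the nearest gene end was 63090 bp, against 71518 bp for regions in arid4b-delta endoderm alone, 16945 bp for regions in all 4 lists and 50172 bp for all distal regions, and 1556 (40.5%) were more than 100 kb from any end, against 43.2% of those in arid4b-delta endoderm alone. Protein-coding gene bodies held 963 (25.1%, 23.7 to 26.5), against 24.3% of the regions in arid4b-delta endoderm alone, 48.2% (45.5 to 50.9) of those in all 4 lists and 30.1% of all distal regions. Genes for lncRNAs overlapped 7.84%, against 6.27%, 18.5% and 8.46% of these sets. RefSeq start windows touched 0.651%, against 0.163%, 23.5% and 2.16%. Beyond 100 kb of any gene end H3K4me3 overlapped 22.9% of the regions in arid4b-delta endoderm and 38.5% in arid4b-delta mesoderm, against 0.643% in WT endoderm and 0.129% in WT mesoderm. These shares were not counted over all distal regions at that distance. Chromosome Y held 104 regions, 18.4% of its distal H3K27ac regions, and the other chromosomes 8.96% to 14.3% of theirs.

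The longest runs of neighbouring regions lay on chromosomes 6 and 8, and one of them covers the 5S ribosomal RNA genes. Regions no more than 25000 bp apart were joined into runs, which gave 2600 regions standing alone and 11 runs of 5 or more, with 132 regions in all. The second longest run, 36 regions over 84.1 kb at chromosome 8, 123539529 to 123623636, between Gas8 and Rhou, is the tandem array of 5S rRNA genes, whose product is part of the large ribosomal subunit. The annotation lists 47 rRNA genes there, a median of 1698 bp apart, with 2 pseudogenes and no other gene. The array counts as distal because the rule measures from protein-coding genes.

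Of the 36 regions in this array, 10 overlapped a 5S rRNA gene. The centres of the 36 lay a median of 752 bp from a gene centre. The counts at the 47 rRNA genes use every peak of each list, also those outside the 36 regions. H3K27ac overlapped 41 genes in arid4b-delta endoderm and 8 in arid4b-delta mesoderm, against 0 in WT endoderm and 0 in WT mesoderm. H3K4me3 overlapped 43 genes in arid4b-delta endoderm and 44 in arid4b-delta mesoderm, against 28 in WT endoderm and 26 in WT mesoderm. One unbroken H3K27me3 peak covered the whole array in each of the 4 libraries. H3K27ac peaks covered 60.8% of the array in arid4b-delta endoderm and 11.3% in arid4b-delta mesoderm, against 0% in WT endoderm and 1.33% in WT mesoderm. Their median fold enrichment was 5.28 in arid4b-delta endoderm and 4.71 in arid4b-delta mesoderm, and the 36 regions had median percentiles of 41.0 and 7.69 in these lists. Reads from near-identical tandem copies can align to several of them, and how the authors placed such reads is not given in the sources used here. The part this plays in the counts was not tested.

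The longest run, 39 regions over 128 kb at chromosome 6, 114504729 to 114632321, lies between Hrh1, a histamine receptor gene, and Atg7, an autophagy enzyme gene, and no gene is annotated inside it. It held 146 H3K27ac peaks in arid4b-delta endoderm and 61 in arid4b-delta mesoderm, against 3 in WT endoderm and 11 in WT mesoderm. H3K27me3 covered 81.1% of it in arid4b-delta endoderm and 63.5% in arid4b-delta mesoderm, against 66.4% in WT endoderm and 53.7% in WT mesoderm, while H3K4me3 covered under 1% in every library. The third run, 14 regions over 24.7 kb on chromosome 6 near Pdia4, had no H3K27ac peak in either WT list. H3K27me3 covered at least 97.1% of it in each of the 4 libraries, and H3K4me3 covered 28.3% in arid4b-delta endoderm and 30.4% in arid4b-delta mesoderm, against 29.9% in WT endoderm and 22.7% in WT mesoderm. The 3 runs hold 89 regions (2.32%). Outside them the H3K4me3 shares were 21.5% in arid4b-delta endoderm and 32.9% in arid4b-delta mesoderm, against 2.45% in WT endoderm and 1.68% in WT mesoderm. The H3K27me3 shares outside them were 10.8% in arid4b-delta endoderm and 4.24% in arid4b-delta mesoderm. In WT endoderm and WT mesoderm they were 7.39% and 3.52%. Over all 3838 regions the 4 H3K27me3 shares were 12.8%, 6.33%, 9.43% and 5.58%, in that order. All 36 regions of the 5S run and all 14 of the third run had H3K27me3 in all 4 libraries.

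**Figure D5:**
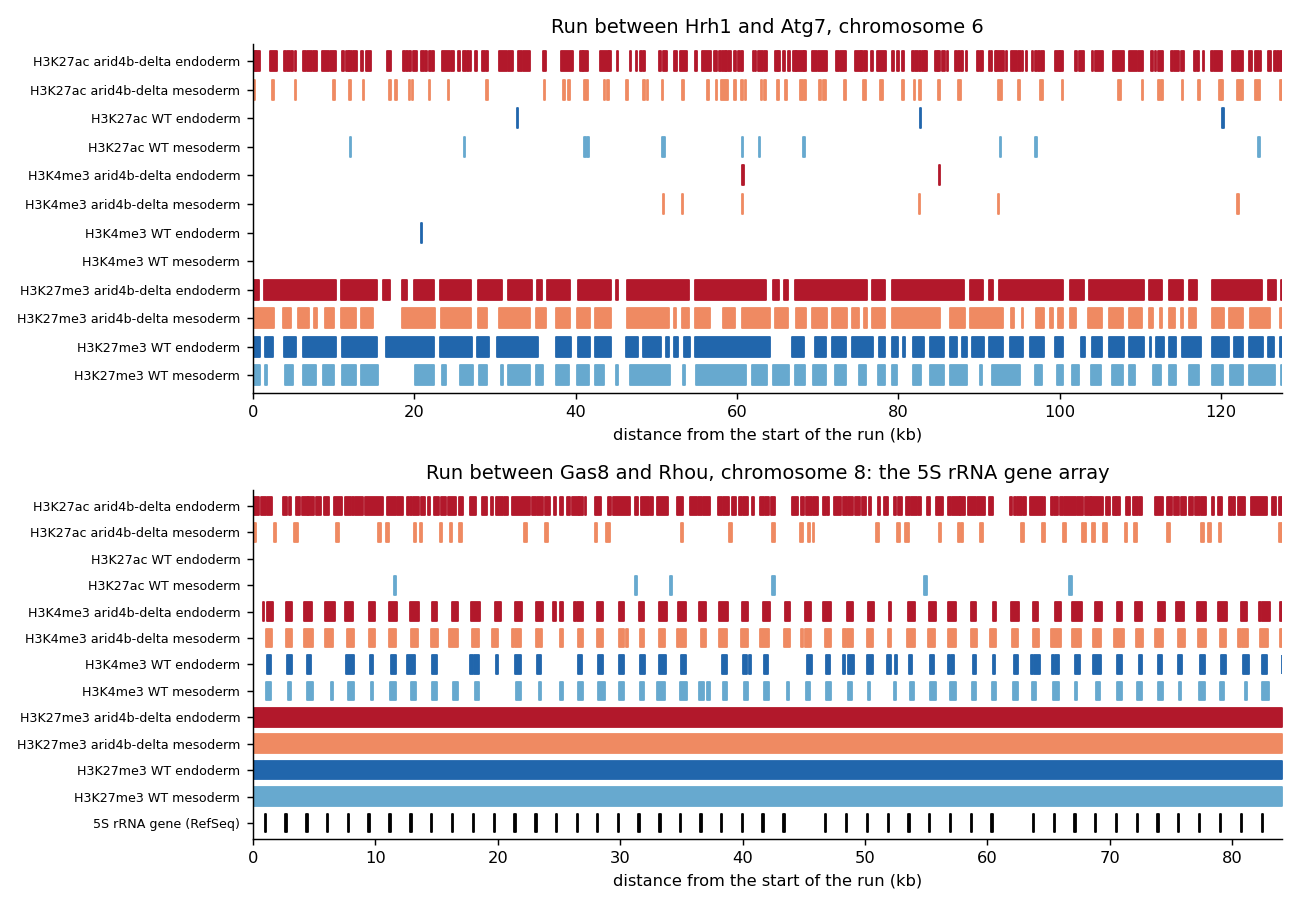
Peaks of the 3 marks in the 12 libraries along the 2 longest runs, by distance from the start of the run (kb); bars are peaks and black bars RefSeq rRNA genes. In both runs H3K27ac bars are dense in arid4b-delta endoderm, fewer in arid4b-delta mesoderm and at most 11 in a WT library, and H3K27me3 spans the 5S rRNA array in all 4 libraries.

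The nearest genes were spread widely. The 3838 regions had 2275 distinct nearest protein-coding genes, 1499 of them with 1 region and 87 with 5 or more. The genes nearest to the most regions were Atg7 with 21, Gas8, a ciliary motility gene, with 21, Hrh1 with 18, Pcdh7, a protocadherin adhesion gene, with 15, and Rhou, a small GTPase gene, with 15. The counts of Atg7, Hrh1, Gas8 and Rhou come from the 2 longest runs. Those of Pcdh7 are spread over 21018 to 1586481 bp from its ends. H3K4me3 was in arid4b-delta alone at 8 of its 15 regions, and at 34.7% of all 3838.

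Genes of the lineages, of pluripotency and of other kinds were looked up among the nearest genes. Of 191 genes in 12 lists, 21 were nearest to 39 regions (1.02%), against 1.45% of all distal regions and 2.05% of those in all 4 lists. Single lists lay on either side of their share of all distal regions. The mesoderm list of 22 genes took 12 regions (0.313%), against 0.198% of all distal regions. Of these, 3 each were nearest to Osr1, a factor of intermediate mesoderm, Hand2, a cardiac and limb factor, and Mef2c, a muscle factor, 2 to Isl1, a factor of the second heart field, and 1 to Msgn1, a factor of presomitic mesoderm. The widest of the 12, 2082 bp and 147187 bp from Osr1 at chromosome 12, 9425174 to 9427255, had fold enrichments of 7.59 in arid4b-delta endoderm and 16.7 in arid4b-delta mesoderm. The region 20060 bp from Msgn1 had 10.2 and 5.78. H3K4me3 was found in arid4b-delta alone at 5 of the 12, namely the Msgn1 region, 2 of the 3 Hand2 regions, 1 Osr1 region and 1 Mef2c region, in all 4 libraries at another Mef2c region and in no library at 6. H3K27me3 was in arid4b-delta endoderm at 1 Hand2 region and in arid4b-delta mesoderm and both WT libraries at 1 Isl1 region.

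Endoderm genes took 3 regions (0.0782%, against 0.0489% of all distal regions). The one 62159 bp from Sox17, a defining endoderm factor, was 1343 bp wide at chromosome 1, 4559585 to 4560927, had fold enrichments of 12.4 in arid4b-delta endoderm and 5.46 in arid4b-delta mesoderm, H3K4me3 in both arid4b-delta libraries and H3K27me3 in arid4b-delta endoderm. Gata4, another endoderm factor, had one 8602 bp away with 6.24 and 5.11, and H3K27me3 in arid4b-delta endoderm and both WT libraries. Krt18, an epithelial keratin gene, had one 20182 bp away with 4.81 and 4.51, and H3K4me3 in both arid4b-delta libraries and WT endoderm.

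In the general pluripotency list, the 3 regions nearest to Myc lay 531086 to 779558 bp away, 2 of them with H3K4me3 in both arid4b-delta libraries and neither WT library, and Mycn was nearest to a region with neither mark in any library. Among neuroectoderm genes, Sox1 had a region with H3K4me3 in all 4 libraries and another with it in arid4b-delta mesoderm, both with H3K27me3 in arid4b-delta endoderm and WT endoderm, and Zic1 one with H3K4me3 in arid4b-delta mesoderm. The naive list took 1 region (0.0261%, against 0.0519% of all distal regions), near the dioxygenase gene Tet2, and the primed epiblast list 5 (0.130% against 0.220%), near Pou3f1, Cdh2 and Fst. Extraembryonic endoderm genes took 3 (0.0782% against 0.0611%), near Dab2, and signalling genes 2 (0.0521% against 0.214%), near Fgf4 and Bmp2. The primitive streak, trophoblast, histone acetylation and housekeeping lists took 0, where the shares of all distal regions are 0.0580%, 0.0366%, 0.0763% and 0.0366%, so a count of 0 among 3838 says little.

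Among gene families, looked at after the values were seen, olfactory receptor genes were nearest to 75 regions (1.95%), against 0.439% of the regions in all 4 lists and 1.48% of all distal regions, while they make up 5.07% of protein-coding genes. Protocadherin genes were nearest to 43 (1.12%), against 0.586% and 0.818%, and zinc finger genes to 72 (1.88%), against 2.86% and 1.66%.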

How the data were processed

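The 12 ChIP-seq peak lists (1 per genotype, lineage and mark) were used as deposited. The 4 input DNA samples were not analysed here. Per the submitters' processing notes, reads were processed with Bowtie2, Picard and MACS2 on mm10, with no versions or settings stated. The lists are narrow peaks for H3K27ac and H3K4me3, broad ones for H3K27me3, each from a single library. A deposited peak has a score, a fold enrichment (ratio), a -log10 p and a -log10 q value from the authors' peak caller and, in narrow lists, another value set by the authors, the summit offset in bp. Neither the score nor -log10 p was used.

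Peaks on chromosomes 1 to 19, X and Y were merged where they overlapped by at least 1 bp. Distance was measured to the ends of 21887 protein-coding genes of RefSeq GRCm38.p6, which is mm10. A gene whose body holds a region counts as nearest. No test was possible with 1 library per group. Shares carry exact Clopper-Pearson 95% intervals. Scripts in Python 3.11.15 with pandas 2.3.3, numpy 2.4.6 and scipy 1.17.1 were tested on simulated data.

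The members, the 12 gene lists and the rules were chosen with earlier results of these data known. Regions named were the 20 highest by the lower of the 2 percentiles, the 5 widest, the 5 highest with H3K4me3 or H3K27me3 in both arid4b-delta libraries alone, up to 25 regions near listed genes, the 5 genes nearest to most regions and 3 on each side of the distance limit. The other listed genes and the 5S array were named after their values were seen, and predicted symbols were counted, not named, apart from lncRNA genes whose start is shown. Some listed genes are not reported here by name, and the counts of the general pluripotency and neuroectoderm lists are not given. Region sequences around summits were not analysed here, so the motif search was made in RefSeq start windows.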

Additional observations from a re-analysis of the deposited data

Results flagged for a closer look

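Unplaced sequences of the assembly and the mitochondrial sequence were kept out of the regions above. They held 96 merged H3K27ac regions, of which 11 had a peak in both arid4b-delta lists and neither WT list, and 0 had a peak in both WT lists and neither arid4b-delta list. Among the 32748 distal regions above the same counts were 3838 (11.7%) and 133 (0.406%), so neither count stands out. The unplaced regions call for a look only because this signal lies outside the chromosomes used. No gene ends were measured on these sequences.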

How the results depend on the processing

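There were 17 alternatives, each applied to some or all of 8 values, 3 of them chosen after seeing the data: H3K4me3 and H3K27me3 lists matched in length, without the 3 longest runs, and distances to genes of every biotype. Of the 110 values this gave, 68 stayed within the limits set (a count within 1.5 times, a share or median within its 95% interval), 39 moved and 3 turned. H3K4me3 in arid4b-delta alone exceeded that in WT alone in both lineages under every alternative run. Values are given below for the count of regions, H3K4me3 and then H3K27me3 in arid4b-delta alone, median width and the median lower percentile.

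With the upper 50% of each H3K27ac list there were 1728 regions, H3K4me3 at 28.3% in mesoderm, H3K27me3 at 5.50% in endoderm and 1.97% in mesoderm, width 573 bp and percentile 66.5. With -log10 q of at least 5, H3K4me3 was 20.2% in endoderm and 33.4% in mesoderm, width 468 bp and percentile 44.6. H3K27ac lists matched in length gave 1230 regions, 21.8% and 37.3%, 560 bp and 61.2. Cutting the arid4b-delta lists to the WT length of their lineage gave 1225 regions (394 for the WT mirror count), 22.8% and 38.9%, 546 bp and 61.2. Peaks of at least 500 bp gave 644 regions, H3K4me3 at 21.9% in endoderm, 962 bp and 74.1, and H3K27me3 in mesoderm turned, at 2.02% for arid4b-delta and 2.17% for WT.

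Mesoderm H3K4me3 was 32.7% with no WT H3K27ac within 1000 bp and 32.4% with peaks within 500 bp merged, which also gave 8.99% for endoderm H3K27me3 and 603 bp. Arid4b-delta peaks overlapping by 50% of the shorter gave a percentile of 37.4. With the other mark within 1000 bp, H3K4me3 was 22.3% and 35.1% and H3K27me3 9.67% and 3.0%. The upper 50% of the other marks' lists gave 0.547% and 0.730% for H3K4me3 and 4.46% for endoderm H3K27me3, and lists of equal length 9.35% and 14.2%, with H3K27me3 turned at 3.20% and 1.56%. A listed gene with an end within 50000 bp was found at 0.443% of regions, against 1.02% by nearest gene. By construction, a stricter limit on fold enrichment or q keeps higher peaks and one on width wider peaks; for the other moves the cause was not tested.

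No paired analysis was possible because each group has 1 library and the values come from no test. Leaving out a replicate was likewise not possible. Depth is unknown and list lengths differ between genotypes, so an absent peak does not show an absent mark.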
